A study of Homo sapiens with 9 samples.

Results

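The genes described here are 38 interferon-stimulated and HLA class I antigen presentation genes, taken by symbol from the 20030 genes of the deposited count table, and all 38 symbols were found there. They were read in MHCC97L, a human hepatocellular carcinoma (HCC) cell line of high metastatic potential, and in its resistant derivatives MHCC97L-Src and MHCC97L-Oxa. MHCC97L-Src had been exposed to rising amounts of saracatinib, an inhibitor of the kinase Src, until it was stably resistant to 4 μmol/L. MHCC97L-Oxa was stably resistant to oxaliplatin, a platinum drug that damages DNA, at 2 μmol/L. The 9 libraries of poly(A) RNA comprised 3 of each line, and the sources used here do not say whether a resistant line came from 1 clone or from a mixed population, nor whether drug was present when RNA was taken. Each line exists once, so what goes with drug resistance and what goes with the history of that 1 line cannot be told apart.

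Interferons are secreted proteins that signal through cell surface receptors and JAK kinases to transcription factors, among them STAT2 and IRF9. The complex ISGF3, which holds both, binds a DNA element named ISRE, and other STAT dimers bind one named GAS; their target genes encode antiviral proteins, RNA sensors and regulators of the response itself. HLA class I molecules present peptides from inside the cell to cytotoxic T cells, and their genes, together with those that cut and transport the peptides, respond to interferon and to NLRC5, a transactivator of class I genes. In tumours, low class I expression is a known route of escape from T cells.

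The sum of gene counts ran from 16970486 to 18209213 per library, and a count of 3, taken as the smallest detectable amount, equalled 0.165 to 0.177 CPM (counts scaled to library size). Counting error alone is covered by this floor. MHCC97L replicate 1 stood apart from the other libraries. Across 11979 genes its deviation from the mean of the 9 libraries had a Spearman's rho of -0.784 with the GC content of the transcript, against -0.257 to 0.701 in the other 8 libraries; genes within a library are not independent, so this is a description. Of the 9 members with a GC content under 45%, it was the highest library of its line in 9 and the highest of all libraries in 8, and of the 29 members with more GC it was the lowest of its line in 22. The largest values of the opposite sign were those of MHCC97L-Src replicates 1 (0.548) and 2 (0.701). MHCC97L-Src replicate 2 was the highest of all libraries in 17 of the 29 members with more GC. Results are therefore given from the counts as deposited, with an offset for GC content and transcript length, and without MHCC97L replicate 1. The labels name liver as the source, while 7 of 15 hepatocyte markers, ALB and AFP among them, had a count of 0 in every library and the 15 summed to 0.34 to 2.14 CPM. The 5 epithelial markers summed to 2990 to 6380 CPM, nearly all of it from KRT8 and KRT18. The others, EPCAM, KRT19 and CDH1, had at most 2, 11 and 19 reads in any library. The 7 fibroblast and stellate markers summed to 92.7 to 233 CPM. Of 12 leukocyte markers, 8 were at 0 throughout, among them PTPRC and the plasmacytoid dendritic cell markers IL3RA and CLEC4C. The 12 summed to 50.5 to 81.4 CPM in MHCC97L, 78.1 to 96.6 in MHCC97L-Src and 149 to 153 in MHCC97L-Oxa. Most of each sum was 1 gene, CD68, with means of 67.3, 82.6 and 145 CPM in the same order. In bulk RNA, fewer cells of a type and less RNA per cell cannot be told apart.

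The members spanned a wide range of levels. On the FPKM scale, which divides fragments by transcript length and library size and so allows genes to be compared, 7 members had a mean over 100 across the 9 libraries, namely B2M, HLA-B, HLA-C, BST2, IFITM1, IFITM2 and IFITM3. IFITM3 had the highest mean level, 2480 FPKM, followed by B2M with 1410. A further 9 lay between 10 and 100 and 8 between 1 and 10. The remaining 14 lay under 1 FPKM, including all IFIT and MX genes, IFI44, IFI44L, USP18 and the RNA sensors IFIH1, DDX58 and DHX58. OAS2 had a single read in 1 of the 9 libraries, and the HLA and IFITM genes were abundant in lines in which the IFIT and MX genes had mean levels under 1 FPKM.

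The promoters of 28 members were found among the RefSeq promoter windows (GRCh38.p14, 250 bases before to 50 after a gene's start). They were searched on both strands for an ISRE core, 2 copies of GAAA with 2 bases between them, and for a GAS core, TTC and GAA with 3 bases between them; overlapping matches were counted. An ISRE core was present for 19 of the 28 members (67.9%), against 4.38% of 27305 genes with such a window, and a GAS core for 10 of 28 (35.7%), against 9.38%. Of the windows below, 5 belong to the members that differed between lines in the counts as deposited (ISG20, OAS1, HLA-B, IFITM1, IFI44). B2M and TAP1 are shown from the class I presentation genes called against MHCC97L with the offsets, B2M in MHCC97L-Src only. HLA-C was also called with the offsets, in both lines, and its window, not printed, held neither core. HLA-E, called likewise, had no window. IFIT1 is shown as a gene with a pair of cores that was not called. Each printed window is written 5′ to 3′ on the strand of its gene, with ISRE and GAS cores in capitals.
ISG20, chr15:88638766-88639065, + strand: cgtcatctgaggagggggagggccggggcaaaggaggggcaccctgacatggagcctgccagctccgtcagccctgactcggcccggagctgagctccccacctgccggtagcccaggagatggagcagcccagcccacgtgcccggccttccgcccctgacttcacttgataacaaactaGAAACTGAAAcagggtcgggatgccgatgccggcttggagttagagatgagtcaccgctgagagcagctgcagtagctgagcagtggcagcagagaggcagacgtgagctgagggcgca
OAS1, chr12:112906712-112907011, + strand: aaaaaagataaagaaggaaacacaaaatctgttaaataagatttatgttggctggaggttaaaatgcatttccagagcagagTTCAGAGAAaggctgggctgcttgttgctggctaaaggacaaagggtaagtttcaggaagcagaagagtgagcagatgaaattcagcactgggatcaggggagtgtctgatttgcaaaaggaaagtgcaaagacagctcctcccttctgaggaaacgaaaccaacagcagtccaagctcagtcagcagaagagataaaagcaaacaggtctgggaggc
HLA-B, chr6:31357130-31357429, - strand: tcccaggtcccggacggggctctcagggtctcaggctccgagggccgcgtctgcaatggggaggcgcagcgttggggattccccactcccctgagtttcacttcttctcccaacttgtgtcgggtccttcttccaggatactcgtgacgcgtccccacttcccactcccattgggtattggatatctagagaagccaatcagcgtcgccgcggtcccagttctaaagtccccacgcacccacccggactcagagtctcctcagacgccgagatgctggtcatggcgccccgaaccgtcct
IFITM1, chr11:313790-314089, + strand: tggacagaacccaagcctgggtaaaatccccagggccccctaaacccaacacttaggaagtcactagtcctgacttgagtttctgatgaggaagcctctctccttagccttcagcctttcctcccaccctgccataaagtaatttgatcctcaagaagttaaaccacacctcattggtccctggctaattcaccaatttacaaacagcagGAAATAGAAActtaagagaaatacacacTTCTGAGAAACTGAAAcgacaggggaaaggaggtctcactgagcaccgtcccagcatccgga
IFI44, chr1:78649581-78649880, + strand: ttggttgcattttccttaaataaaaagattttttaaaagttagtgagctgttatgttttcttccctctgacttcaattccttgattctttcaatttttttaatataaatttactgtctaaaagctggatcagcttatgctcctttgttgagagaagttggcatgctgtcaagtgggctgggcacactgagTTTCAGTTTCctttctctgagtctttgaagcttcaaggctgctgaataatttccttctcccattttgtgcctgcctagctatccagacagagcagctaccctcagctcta
B2M, chr15:44711267-44711566, + strand: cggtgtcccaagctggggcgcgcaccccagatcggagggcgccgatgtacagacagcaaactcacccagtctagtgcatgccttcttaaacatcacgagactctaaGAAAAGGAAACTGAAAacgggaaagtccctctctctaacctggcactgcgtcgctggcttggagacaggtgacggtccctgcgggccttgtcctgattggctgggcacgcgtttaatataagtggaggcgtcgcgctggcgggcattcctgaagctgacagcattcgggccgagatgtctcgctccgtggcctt
TAP1, chr6:32853655-32853954, - strand: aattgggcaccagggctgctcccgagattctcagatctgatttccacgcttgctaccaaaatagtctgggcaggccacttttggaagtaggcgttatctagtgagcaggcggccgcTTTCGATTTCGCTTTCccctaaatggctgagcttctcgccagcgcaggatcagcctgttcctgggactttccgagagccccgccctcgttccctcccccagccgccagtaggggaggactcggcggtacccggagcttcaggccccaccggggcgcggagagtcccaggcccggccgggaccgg
IFIT1, chr10:89392373-89392672, + strand: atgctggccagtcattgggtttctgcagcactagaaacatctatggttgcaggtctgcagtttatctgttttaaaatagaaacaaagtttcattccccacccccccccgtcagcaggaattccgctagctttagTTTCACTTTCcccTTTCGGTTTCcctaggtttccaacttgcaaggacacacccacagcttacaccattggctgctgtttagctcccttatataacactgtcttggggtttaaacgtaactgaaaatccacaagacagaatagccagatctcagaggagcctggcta
The ISRE core of ISG20 began 69 bases before the start, and those of IFITM1 40 and 6 bases before it, the second overlapping a GAS core. B2M and the printed window of TAP1 each held overlapping ISRE cores, from 144 and 134 bases before the start. A second TAP1 window, not printed, held no ISRE core and a GAS core 189 bases before its start. A second window of IFI44 held the same ISRE core 18 bases before its start, against 60 in the printed one. OAS1 held a GAS core and no ISRE core of this spelling, and HLA-B held neither, which says only that these letters are not in the window. A match to a core is not evidence of binding.

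**Figure D1:**
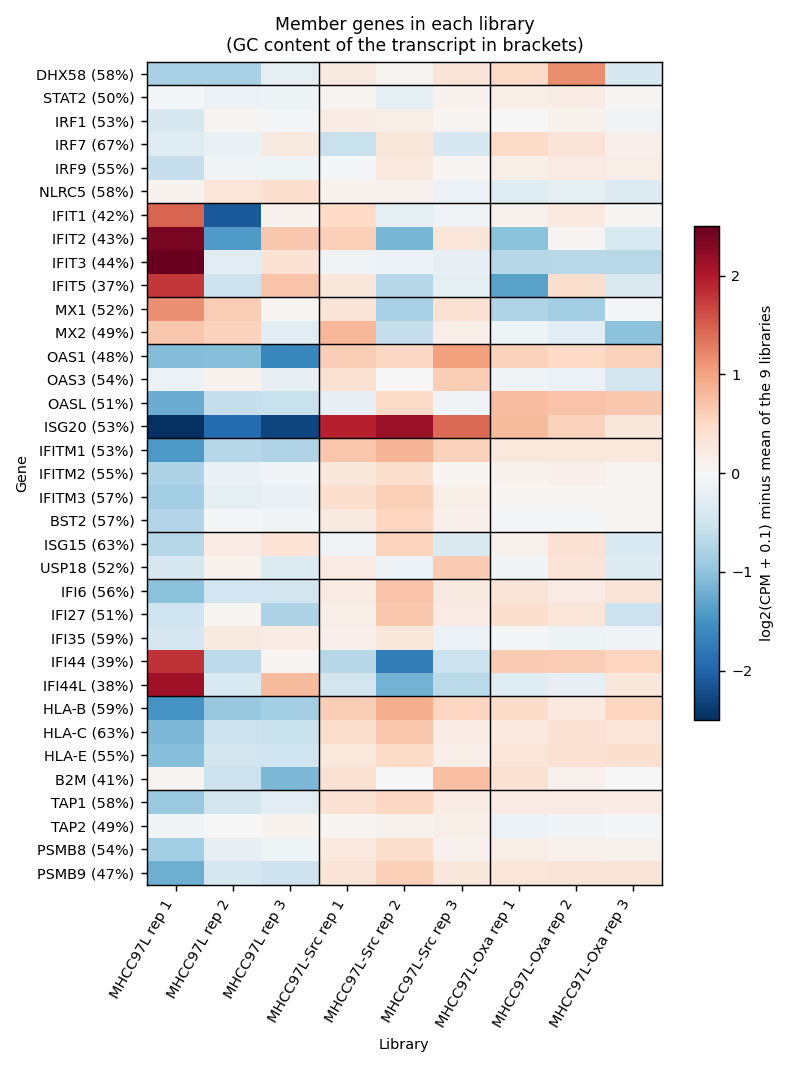
Deviation of each tested member (rows, in order of role, with the GC content of the transcript) from its mean over the 9 libraries (columns), in log2(CPM + 0.1); red is higher and blue lower. MHCC97L replicate 1 is red in the IFIT genes, IFI44 and IFI44L, whose GC content is under 45%, and ISG20 separates the 3 MHCC97L libraries from the other 6.

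To ask which members changed as resistance to saracatinib was acquired, the line was set against MHCC97L, 3 libraries each, by edgeR's quasi-likelihood test with Benjamini-Hochberg adjustment over all genes tested, and a gene was called at an adjusted p under 0.05. Of the members, 35 passed the filter on low counts; IFIH1, DDX58 and OAS2 did not. ISG20, OAS1, HLA-B and IFITM1 were higher in MHCC97L-Src and no member was lower, while 1.43% of all tested genes were called higher and 0.698% lower. At an unadjusted p under 0.05, 12 members were higher and 2 lower, beside 9.4% and 20.1% of all genes. DESeq2's Wald test called 10 members higher and 1, IFI44L, lower, beside 6.01% and 11.6% of all genes. Limma on log2(FPKM + 1) called 5 of 26 tested members higher and 0 lower, beside 2.05% and 0.79%. The median log2 fold change was 0.53 over the members and -0.16 over all tested genes. With the GC and length offsets, 8 members were called higher (B2M, HLA-C, HLA-E and TAP1 in addition) and 1 lower (NLRC5), against 5.53% and 5.15% of all genes, with medians of 0.37 and -0.05. Without MHCC97L replicate 1, 7 were called higher (B2M, HLA-C and HLA-E in addition to the first 4) and 0 lower by edgeR, beside 3.58% and 1.94% of all genes. At an unadjusted p under 0.05 that fit had 13 members higher and 0 lower, beside 11.5% and 11.1% of all genes.

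In MHCC97L-Oxa, compared with the same 3 MHCC97L libraries to ask what changed with oxaliplatin resistance, ISG20 and HLA-B were called higher and no member lower. Of all tested genes 0.771% were called higher and 0.182% lower. At an unadjusted p under 0.05, 11 members were higher and 3 lower, beside 8.84% and 13.6% of all genes. DESeq2 called 9 members higher and 0 lower, beside 4.73% and 2.69%, and limma called 6 of 26 higher and 0 lower, beside 2.32% and 0.258%. The median log2 fold change was 0.39 over the members and -0.19 over all tested genes. With the offsets, 9 members were called higher (HLA-B, HLA-C, HLA-E, TAP1, ISG20, OAS1, OASL, IFITM1 and IFI6) and 2 lower (NLRC5 and IFI35), against 6.51% and 6.49% of all genes. The members' median was then 0.13, and that of all genes -0.08. Without MHCC97L replicate 1, 15 were called higher and 1, NLRC5, lower, against 11.9% and 6.60% of all genes. The 15 were the 9 called higher with the offsets together with B2M, IFITM2, IFITM3, PSMB8, PSMB9 and STAT2.

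The calls rested on few libraries. In MHCC97L-Src, the ISG20 call was lost without MHCC97L replicate 3 (adjusted p = 0.0608) and kept in the other 5 fits that left out 1 library. HLA-B, IFITM1 and OAS1 lost their calls when MHCC97L replicate 3 or any single MHCC97L-Src library was omitted, with adjusted p of 0.0533 to 0.0867 for HLA-B, 0.0854 to 0.116 for IFITM1 and 0.142 to 0.187 for OAS1. Those fits called 0.18% to 0.563% of all genes, against 2.13% with all libraries, so the loss was not particular to the members. In MHCC97L-Oxa, ISG20 and HLA-B lost theirs without MHCC97L replicate 3 or any 1 MHCC97L-Oxa library (adjusted p of 0.162 to 0.222 and 0.144 to 0.257). Those fits called 0.0163% to 0.0164% of all genes, against 0.953% with all libraries. The log2 fold changes of the called members moved little in the fits that left out 1 library, from 4.14 to 4.77 for ISG20 and 1.66 to 1.98 for HLA-B in MHCC97L-Src.

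**Figure D2:**
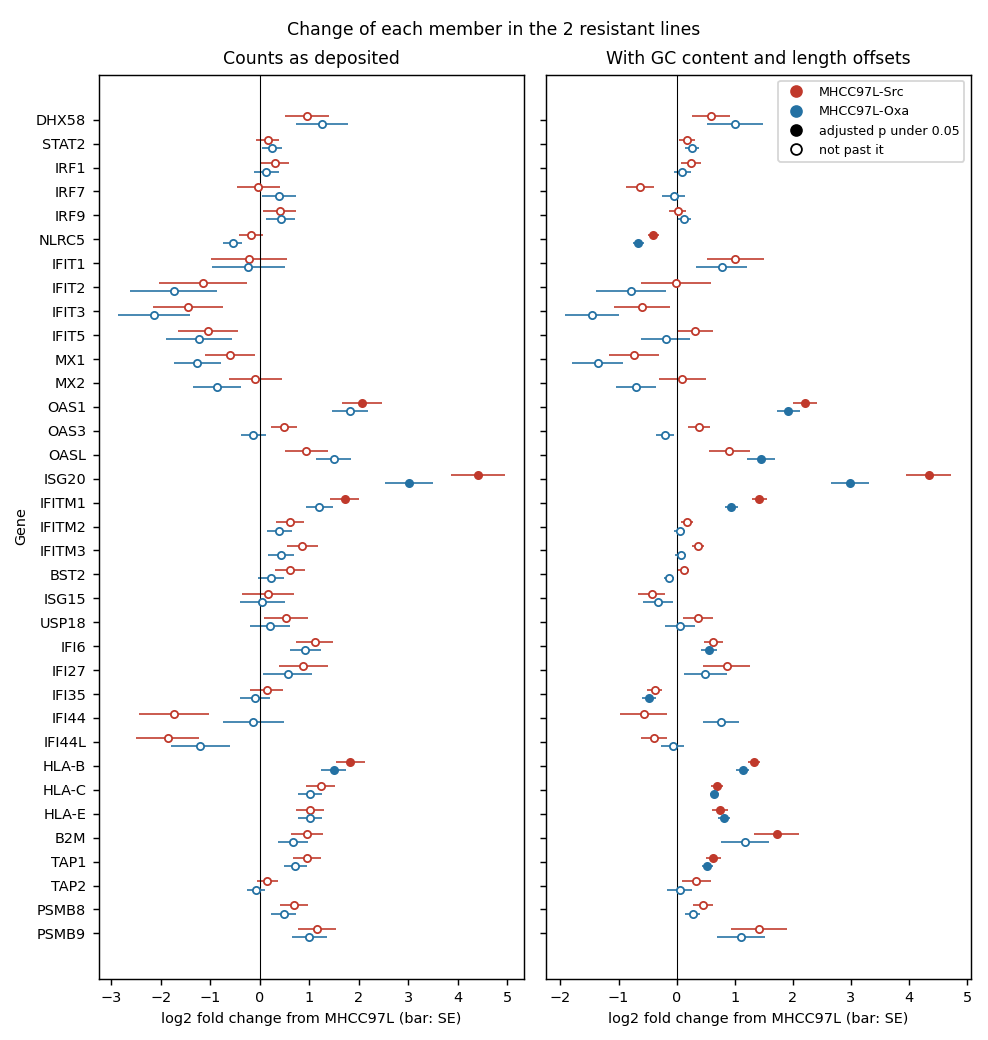
Log2 fold change of each tested member in MHCC97L-Src (red) and MHCC97L-Oxa (blue) against MHCC97L, from the counts as deposited (left) and with GC content and length offsets (right); bars are standard errors, filled points have an adjusted p under 0.05, and the 2 panels have their own horizontal scales. ISG20 lies farthest from 0 in both panels, and the bars of HLA-B, HLA-C, HLA-E and TAP1 are shorter on the right.

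Of the 4 class I molecules, HLA-B was called higher in both resistant lines as deposited, and HLA-B, HLA-C and HLA-E were called in both with the offsets. HLA-B, a classical heavy chain that presents peptides to CD8 T cells (chromosome 6, 31269491 to 31357188, - strand, in GENCODE 29), had 2416, 3507 and 3792 reads in MHCC97L replicates 1 to 3, 10110, 12090 and 9731 in MHCC97L-Src, with 9597, 8104 and 9805 in MHCC97L-Oxa. The span given for HLA-B overlaps the GENCODE 29 model of HLA-C (31268749 to 31272130) on the same strand. For HLA-B, all 6 libraries of the resistant lines lay above all 3 of MHCC97L. HLA-B was 3.56-fold higher in MHCC97L-Src (log2 fold change 1.83, SE 0.29, adjusted p = 0.0195) and 2.81-fold higher in MHCC97L-Oxa (1.49, SE 0.25, adjusted p = 0.0414). With the offsets the log2 differences were 1.33 (SE 0.10) and 1.14 (SE 0.11), both called.

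HLA-C, the other classical heavy chain on the list and also a ligand of killer cell receptors, had 4068, 6166 and 6134 reads in MHCC97L, 11853, 13632 and 10012 in MHCC97L-Src, with 10879, 11593 and 10945 in MHCC97L-Oxa. HLA-E, which presents leader peptides of other class I chains to natural killer cells, had 3181, 4843 and 4793, then 7764, 8919 and 7405, then 8451, 8801 and 8805. Neither gene's MHCC97L libraries overlapped those of a resistant line. As deposited, HLA-C differed by 1.23 in MHCC97L-Src (adjusted p = 0.0769) and 1.02 in MHCC97L-Oxa (adjusted p = 0.103), and HLA-E by 1.02 and 1.01 (adjusted p = 0.0918 and 0.103), which did not pass the threshold. With the offsets HLA-C rose by 0.70 and 0.65 and HLA-E by 0.75 and 0.82 on the log2 scale, all 4 called.

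B2M, the light chain shared by all class I molecules (chromosome 15, 44711487 to 44718877), behaved less evenly. It had 34679, 23342 and 15618 reads in MHCC97L, 43009, 32586 and 56185 in MHCC97L-Src, with 45234, 36774 and 33693 in MHCC97L-Oxa. The range of MHCC97L reached into that of both resistant lines, through replicate 1. B2M has a GC content of 40.6%, lower than that of the heavy chains (54.8% in HLA-E to 62.7% in HLA-C), and its log2 difference was 0.95 in MHCC97L-Src as deposited (adjusted p = 0.117) and 1.72 with the offsets (adjusted p = 0.0358). In MHCC97L-Oxa it was 0.67 (adjusted p = 0.226) and 1.18 (adjusted p = 0.108). Without MHCC97L replicate 1 B2M was called in both lines, at 1.25 (adjusted p = 0.024) and 1.02 (adjusted p = 0.0234). With the offsets and without that library it was called in neither, at 1.48 (adjusted p = 0.0551) and 0.95 (adjusted p = 0.156).

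The genes that supply peptides differed among themselves. TAP1 and TAP2 together form the transporter that moves peptides into the endoplasmic reticulum. TAP1 had 965, 1349 and 1545 reads in MHCC97L, 2314, 2523 and 2065 in MHCC97L-Src, with 2175, 2156 and 2089 in MHCC97L-Oxa, so that all 6 resistant libraries lay above MHCC97L. Its log2 difference was 0.95 (adjusted p = 0.104) and 0.72 (adjusted p = 0.193) as deposited, and with the offsets it was called at 0.63 (SE 0.13) and 0.53 (SE 0.10). TAP2, between 1922 and 2251 reads in every library, differed by 0.15 in MHCC97L-Src (SE 0.21) and by -0.08 in MHCC97L-Oxa (SE 0.18).

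PSMB8 and PSMB9 encode catalytic subunits of the immunoproteasome, which cuts peptides for class I. PSMB8, the most abundant of the 4 peptide supply genes per length, had 1153, 1801 and 1948 reads in MHCC97L, 2409, 2690 and 2229 in MHCC97L-Src, with 2395, 2271 and 2217 in MHCC97L-Oxa. Its resistant libraries all exceeded those of MHCC97L, with log2 differences of 0.69 (adjusted p = 0.159) and 0.48 (adjusted p = 0.278). PSMB9 differed by 1.16 (adjusted p = 0.115) and 1.00 (adjusted p = 0.196). Neither subunit was called with the offsets. Without MHCC97L replicate 1 both were called higher in MHCC97L-Oxa, PSMB8 at 0.34 (adjusted p = 0.0183) and PSMB9 at 0.85 (adjusted p = 0.00919), and neither in MHCC97L-Src. With the offsets and without that library PSMB9 was called in MHCC97L-Oxa (0.74, adjusted p = 0.018). PSMB9 and TAP1 lie next to each other on opposite strands with overlapping gene models, so reads between them may have been shared.

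ISG20, an RNA exonuclease active against viral RNA (chromosome 15, 88636153 to 88656483, + strand), had the largest change of all members against MHCC97L. It had 10, 22 and 17 reads in MHCC97L, 337, 383 and 239 in MHCC97L-Src, with 159, 135 and 109 in MHCC97L-Oxa. The 3 lines did not overlap, in the order MHCC97L, MHCC97L-Oxa, MHCC97L-Src. ISG20 was 21.1-fold higher in MHCC97L-Src (log2 4.40, SE 0.54, adjusted p = 0.00922) and 8.07-fold higher in MHCC97L-Oxa (3.01, SE 0.48, adjusted p = 0.0353), and the offsets hardly moved these values (4.34 and 2.98, both called). Its level remained modest, with a mean of 1.29 FPKM in MHCC97L-Src and 0.0652 in MHCC97L.

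The oligoadenylate synthetases, which sense double-stranded RNA and activate RNase L, did not move as a family. OAS1 (chromosome 12, 112906777 to 112933222) had 80, 81 and 55 reads in MHCC97L, 258, 235 and 347 in MHCC97L-Src, with 263, 246 and 256 in MHCC97L-Oxa. All 6 resistant libraries were above MHCC97L, by 4.16-fold in MHCC97L-Src (log2 2.06, SE 0.40, adjusted p = 0.0402) and 3.54-fold in MHCC97L-Oxa (1.82, SE 0.36, adjusted p = 0.0646). With the offsets OAS1 was called in both lines, at 2.21 and 1.92.

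OASL, a relative without synthetase activity that enhances RNA sensing, had 101, 161 and 166 reads in MHCC97L, 204, 324 and 230 in MHCC97L-Src, with 425, 404 and 389 in MHCC97L-Oxa. The 3 lines did not overlap, and here MHCC97L-Oxa was the highest, in contrast to ISG20. The log2 difference from MHCC97L was 1.49 in MHCC97L-Oxa (SE 0.35, adjusted p = 0.103), called with the offsets at 1.45 (adjusted p = 0.0135), and 0.94 in MHCC97L-Src (adjusted p = 0.185), not called with them either.

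OAS3, the most abundant of the synthetases per length, had 732, 857 and 713 reads in MHCC97L, 1027, 766 and 1234 in MHCC97L-Src, with 783, 738 and 588 in MHCC97L-Oxa. Both resistant lines overlapped MHCC97L, with log2 differences of 0.49 (adjusted p = 0.239) and -0.13 (adjusted p = 0.751). OAS2 was at 0 in all libraries but MHCC97L-Src replicate 2, where it had 1 read, so that no difference was detectable at this depth.

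**Figure D3:**
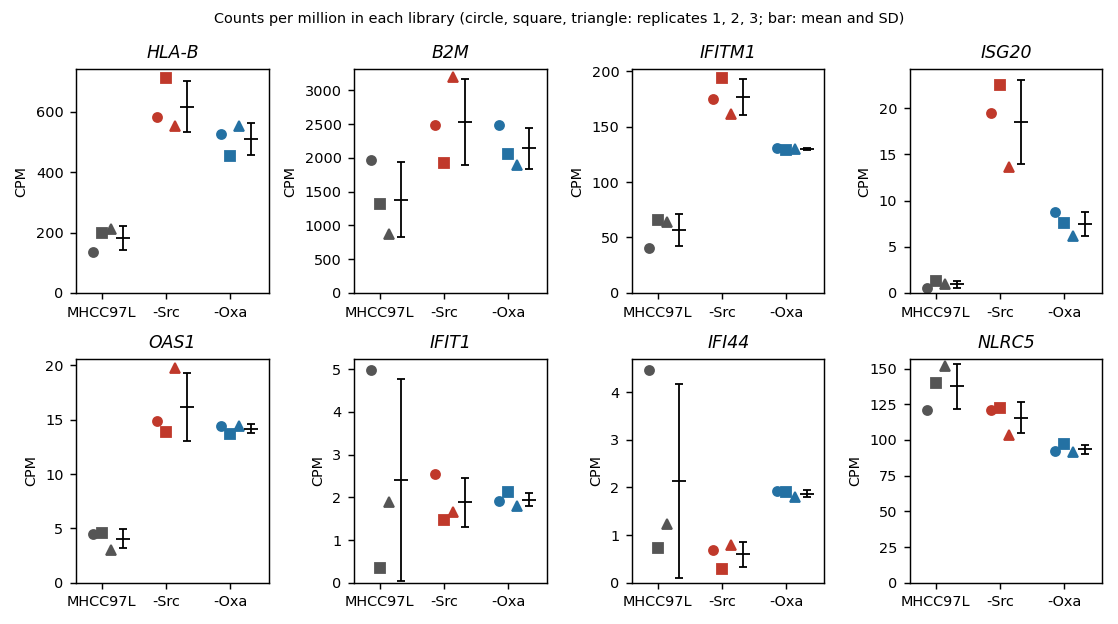
Level in CPM of 8 members in the 3 libraries of each line (symbols mark replicates 1 to 3) with mean and SD; each panel has its own vertical axis, which starts at 0. ISG20, HLA-B, IFITM1 and OAS1 lie higher in all 6 resistant libraries, whereas IFIT1 and IFI44 in MHCC97L are spread widely by replicate 1.

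The IFITM proteins, which block viral entry at membranes, and BST2 (tetherin), which holds budding virus at the cell surface, were abundant in every library. IFITM1 (chromosome 11, 313506 to 315272) had 708, 1166 and 1152 reads in MHCC97L, 3040, 3295 and 2847 in MHCC97L-Src, with 2377, 2319 and 2308 in MHCC97L-Oxa, with no overlap between any lines. It was 3.27-fold higher in MHCC97L-Src (log2 1.71, SE 0.30, adjusted p = 0.0256) and 2.29-fold higher in MHCC97L-Oxa (1.20, SE 0.27, adjusted p = 0.0866). With the offsets both were called, at 1.42 and 0.94.

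IFITM3 had 15093, 23557 and 25002 reads in MHCC97L, 36108, 40158 and 30351 in MHCC97L-Src, with 28933, 28498 and 28793 in MHCC97L-Oxa. No line overlapped another, but its log2 difference was 0.86 as deposited and 0.37 with the offsets in MHCC97L-Src (adjusted p = 0.128 and 0.0681), and 0.42 and 0.07 in MHCC97L-Oxa, none of them called. IFITM2 and BST2 differed by 0.61 each in MHCC97L-Src and by 0.39 and 0.22 in MHCC97L-Oxa, none of them called. Without MHCC97L replicate 1, IFITM2 and IFITM3 were called higher in MHCC97L-Oxa, but not once the offsets were added. The IFITM genes, like the HLA heavy chains, are close relatives whose reads can be split by the counting, and the gene models of IFITM1 and IFITM2 overlap.

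The IFIT genes, which bind foreign RNA, were low, and all 4 were highest in MHCC97L replicate 1. IFIT3 had 111, 15 and 25 reads in MHCC97L, 17, 16 and 16 in MHCC97L-Src, with 11, 11 and 11 in MHCC97L-Oxa. IFIT2 had 78, 4 and 23 reads in MHCC97L, 21, 5 and 17 in MHCC97L-Src, with 6, 14 and 10 in MHCC97L-Oxa. IFIT5 had 89, 17 and 43, then 30, 14 and 21, then 9, 34 and 19. IFIT1 had 88, 6 and 34, then 44, 25 and 29, then 35, 38 and 32. Scaled to library size, MHCC97L replicate 2 lay below all resistant libraries for IFIT1 and IFIT2 and within their range for IFIT3 and IFIT5. MHCC97L replicate 3 lay within their range for IFIT1 and above it for IFIT2, IFIT3 and IFIT5.

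As deposited, the log2 differences of IFIT1, IFIT2, IFIT3 and IFIT5 were -0.22, -1.14, -1.45 and -1.05 in MHCC97L-Src, with -0.23, -1.74, -2.13 and -1.23 in MHCC97L-Oxa, none called. With the offsets they became 1.01, -0.01, -0.59 and 0.32 in MHCC97L-Src, with 0.78, -0.78, -1.46 and -0.19 in MHCC97L-Oxa, again none called, so that the sign of IFIT1 turned in both lines and that of IFIT5 in MHCC97L-Src. Their GC content ran from 37.4% to 44.3%.

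MX1 and MX2, dynamin-like GTPases that trap viral nucleocapsids, had 41, 28 and 19 and 30, 28 and 15 reads in MHCC97L. MX1 had 22, 9 and 23 in MHCC97L-Src, with 10, 9 and 17 in MHCC97L-Oxa, and MX2 had 33, 11 and 20 and then 17, 15 and 8. The MHCC97L-Oxa libraries lay below all of MHCC97L for MX1, with a log2 difference of -1.26 (adjusted p = 0.203), and neither gene was called in any comparison.

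Of the IFI genes, IFI6, a mitochondrial protein that restrains apoptosis, had 214, 317 and 324 reads in MHCC97L, 496, 691 and 508 in MHCC97L-Src, with 565, 514 and 550 in MHCC97L-Oxa. All resistant libraries lay above MHCC97L, by 1.11 on the log2 scale in MHCC97L-Src (adjusted p = 0.115) and 0.92 in MHCC97L-Oxa (adjusted p = 0.194). With the offsets the differences were 0.63 (adjusted p = 0.0568) and 0.56 (adjusted p = 0.0442). IFI44L had 312, 54 and 125 reads in MHCC97L, 50, 29 and 43 in MHCC97L-Src, with 58, 62 and 86 in MHCC97L-Oxa. MHCC97L-Src lay below MHCC97L throughout, with a log2 difference of -1.86 (adjusted p = 0.117) that was -0.39 with the offsets. Against MHCC97L, IFI44 differed by -1.73 in MHCC97L-Src and -0.13 in MHCC97L-Oxa as deposited, and by -0.57 and 0.76 with the offsets, none called. IFI27, a small mitochondrial protein at 9 to 26 reads per library, differed by 0.88 and 0.56 and was not called. IFI35, at 424 to 666 reads, differed by 0.14 and -0.10 as deposited, and with the offsets was called lower in MHCC97L-Oxa (-0.47, adjusted p = 0.0487) but not in MHCC97L-Src (-0.38, adjusted p = 0.113).

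ISG15, a ubiquitin-like modifier, had 45, 86 and 98 reads in MHCC97L, 69, 107 and 58 in MHCC97L-Src, with 84, 99 and 58 in MHCC97L-Oxa. The lines overlapped, with log2 differences of 0.16 (SE 0.52) and 0.05 (SE 0.46). USP18, the protease that removes ISG15 and dampens interferon receptor signalling, differed by 0.53 (SE 0.44) and 0.21 (SE 0.40), and so the ISG15 system showed no difference that passed the test in either line, with or without the offsets.

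Among the transcriptional regulators no member was called from the counts as deposited. IRF9, the DNA-binding part of ISGF3 and the regulator with the highest mean FPKM over the 9 libraries, had 315, 443 and 442 reads in MHCC97L, 449, 535 and 485 in MHCC97L-Src, with 538, 547 and 534 in MHCC97L-Oxa. The resistant libraries all exceeded MHCC97L, with log2 differences of 0.40 (adjusted p = 0.420) and 0.42 (adjusted p = 0.364) that were 0.02 and 0.13 with the offsets. STAT2, IRF1 and IRF7 differed from MHCC97L by -0.03 to 0.39 as deposited. Without MHCC97L replicate 1, STAT2 was called higher in MHCC97L-Oxa, in a fit that called 11.9% of all genes higher. It was not called there once the offsets were added.

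NLRC5 went the other way from the class I genes that it is known to transactivate. It had 2131, 2486 and 2733 reads in MHCC97L, 2099, 2077 and 1817 in MHCC97L-Src, with 1675, 1742 and 1628 in MHCC97L-Oxa. Scaled to library size, all MHCC97L-Oxa libraries lay below MHCC97L, while MHCC97L-Src overlapped it. The log2 difference was -0.18 in MHCC97L-Src (adjusted p = 0.626) and -0.55 in MHCC97L-Oxa (adjusted p = 0.201), and with the offsets NLRC5 was called lower, at -0.40 (SE 0.10, adjusted p = 0.0447) and -0.66 (SE 0.09, adjusted p = 0.00782).

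The RNA sensors were scarce. DHX58 (LGP2), the most abundant of the 3 per length, had 10, 10 and 16 reads in MHCC97L, 22, 19 and 24 in MHCC97L-Src, with 28, 45 and 14 in MHCC97L-Oxa, and its log2 differences of 0.95 and 1.26 were not called (adjusted p = 0.187 and 0.216). IFIH1 (MDA5) had between 1 and 13 reads and DDX58 (RIG-I) between 0 and 16, with the most reads of both in MHCC97L replicate 1.

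MHCC97L-Src and MHCC97L-Oxa were also compared with each other, without MHCC97L libraries. ISG20 was called higher and IFI44 lower in MHCC97L-Src, while 2.12% of all tested genes were called higher and 2.52% lower; the median log2 difference was 0.22 over the members and -0.02 over all genes. ISG20 was higher in MHCC97L-Src by 1.38 on the log2 scale (SE 0.25, adjusted p = 0.0129). IFI44, a protein without a settled function, had 12, 5 and 14 reads in MHCC97L-Src, below the 35, 34 and 32 of MHCC97L-Oxa, beside 79, 13 and 22 in MHCC97L. It was 3.03-fold lower in MHCC97L-Src than in MHCC97L-Oxa (log2 -1.60, SE 0.39, adjusted p = 0.0463), while MHCC97L overlapped MHCC97L-Src at 13 reads. With the offsets B2M, BST2, IFITM1 and IFITM3 were also called higher in MHCC97L-Src, by 0.53, 0.25, 0.46 and 0.29, IFI44 was called lower at -1.31, and the shares of all genes were 4.53% higher and 5.16% lower. HLA-B, HLA-C and HLA-E differed between the resistant lines by 0.33 (SE 0.15), 0.21 (SE 0.15) and 0.01 (SE 0.13). Leaving out 1 library ended the ISG20 call in 3 of 6 fits (MHCC97L-Src replicate 1, MHCC97L-Oxa replicate 2 or 3, adjusted p of 0.0563 to 0.0893) and the IFI44 call in 5 of 6 (all but MHCC97L-Src replicate 3, 0.0632 to 0.188). The fits without the ISG20 call had 1.38% to 1.9% of all genes called, and those without the IFI44 call 1.38% to 8.51%. With all libraries the share was 4.64%.

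**Figure D4:**
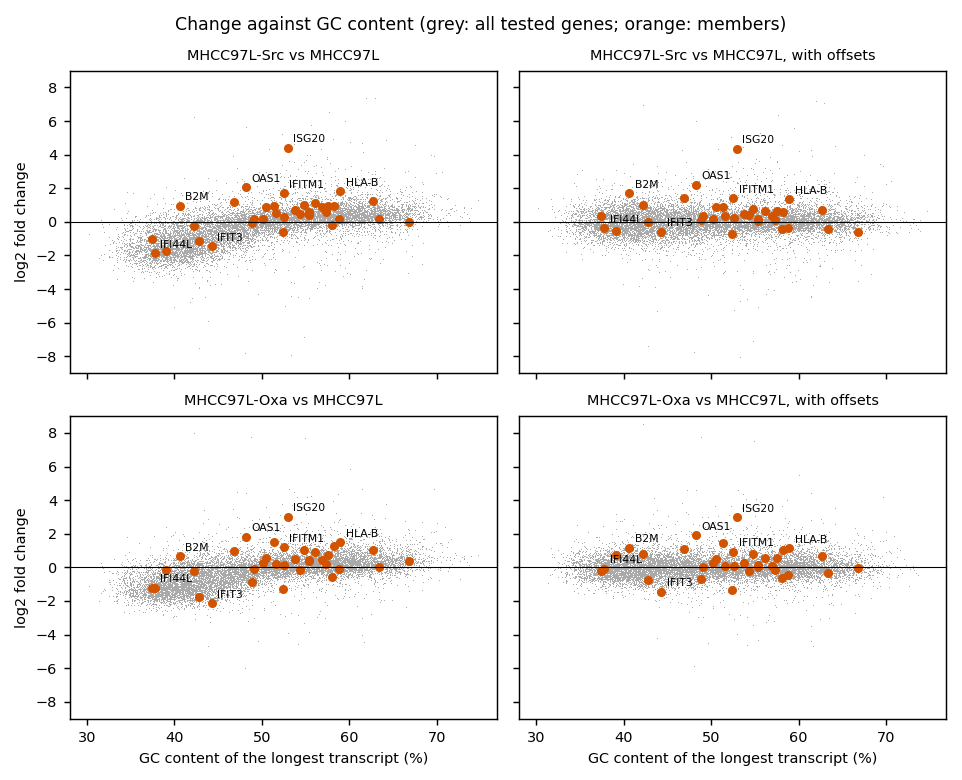
Log2 fold change of all tested genes (grey) and of the members (orange) against the GC content of the longest transcript, for MHCC97L-Src (upper) and MHCC97L-Oxa (lower) against MHCC97L, as deposited (left) and with GC content and length offsets (right). On the left the grey cloud of genes under 45% GC lies below 0 together with the IFIT genes and IFI44L. On the right the cloud is centred near 0, which the offsets bring about by design.

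The IFIT genes, IFI44, IFI44L and B2M are the tested members of low GC content. Under 45% GC, the 7 tested members had a median log2 difference of -1.14 in MHCC97L-Src against -1.29 for 4234 genes, and of -1.20 in MHCC97L-Oxa against -1.05 for 4270 genes. At 45% or more, the 28 tested members had medians of 0.65 and 0.42 against 0.15 and 0.06. With the offsets the medians of the low-GC members were -0.01 and -0.07, against -0.09 and -0.11 for all low-GC genes, and those of the other members 0.38 and 0.19, against -0.03 and -0.06. The offsets are fitted over all tested genes and remove any trend with GC content, whatever its source. The small medians of all genes therefore follow from the fit.

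Upstream of the members, of 21 interferon genes in the table, IFNE alone had reads, at most 10 per library (8, 2 and 10 in MHCC97L, 1, 0 and 0 in MHCC97L-Src, with 2, 5 and 4 in MHCC97L-Oxa), and the other 20 were at 0 in all 9 libraries. Of the 11 receptor, kinase and STAT genes, none was called from the counts as deposited by edgeR in MHCC97L-Src (10 tested, 0 higher and 3 lower at an unadjusted p under 0.05) or MHCC97L-Oxa (11 tested, 0 and 2).

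Of 13 genes of interferon induction and feedback, 11 were tested, and SOCS3, an inhibitor of JAK signalling, was called in both lines. It had 973, 1471 and 1429 reads in MHCC97L, 4950, 5738 and 4795 in MHCC97L-Src, with 4380, 4221 and 3886 in MHCC97L-Oxa, and rose by 2.11 (SE 0.28, adjusted p = 0.0124) and 1.68 (SE 0.24, adjusted p = 0.0282) on the log2 scale. With the offsets SOCS3 was called in both lines again, and in MHCC97L-Src TMEM173 was also called higher (0.61, adjusted p = 0.0295) and PTPN2, a phosphatase that acts on JAK and STAT proteins, lower (-0.93, adjusted p = 0.0366). Of 58 further interferon-stimulated genes, 37 were tested in each comparison with MHCC97L and edgeR called 0, with medians of -0.53 and -0.59; at an unadjusted p under 0.05, 8 were higher and 11 lower in MHCC97L-Src (9.4% and 20.1% of all genes), with 3 and 10 respectively in MHCC97L-Oxa (8.84% and 13.6%). With the offsets, 5 were called higher and 3 lower in MHCC97L-Src (5.53% and 5.15% of all genes), with 3 and 4 respectively in MHCC97L-Oxa (6.51% and 6.49%).

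Between the resistant lines, 1 of 11 tested induction and feedback genes and 3 of 34 tested further interferon-stimulated genes were called, all higher in MHCC97L-Src. These were TMEM173 (STING, the adaptor of cytosolic DNA sensing) by 0.69, IFI30, a lysosomal thiol reductase, by 1.16, LGALS3BP by 0.54 and LY6E by 0.79. Of all tested genes, 2.12% were called higher and 2.52% lower. With the offsets, 2 and 6 genes of the 2 lists were called higher and 0 lower, beside 4.53% and 5.16% of all genes.

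The 7 members in the major histocompatibility complex (HLA-B, HLA-C, HLA-E, TAP1, TAP2, PSMB8 and PSMB9) were set beside their neighbours, the other genes of chromosome 6 between 29.5 and 33.5 Mb (GENCODE 29). In MHCC97L-Src the members had a median log2 difference of 1.02 against 0.31 for 97 neighbours, and in MHCC97L-Oxa 1.00 against 0.17 for 101. With the offsets these were 0.70 against 0.02 and 0.65 against -0.04. With the offsets 4 of the 7 members were called higher and 0 lower in each line. Of the neighbours, 14 were called higher and 4 lower in MHCC97L-Src (5.53% and 5.15% of all genes), with 13 and 8 respectively in MHCC97L-Oxa (6.51% and 6.49%).

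**Figure D5:**
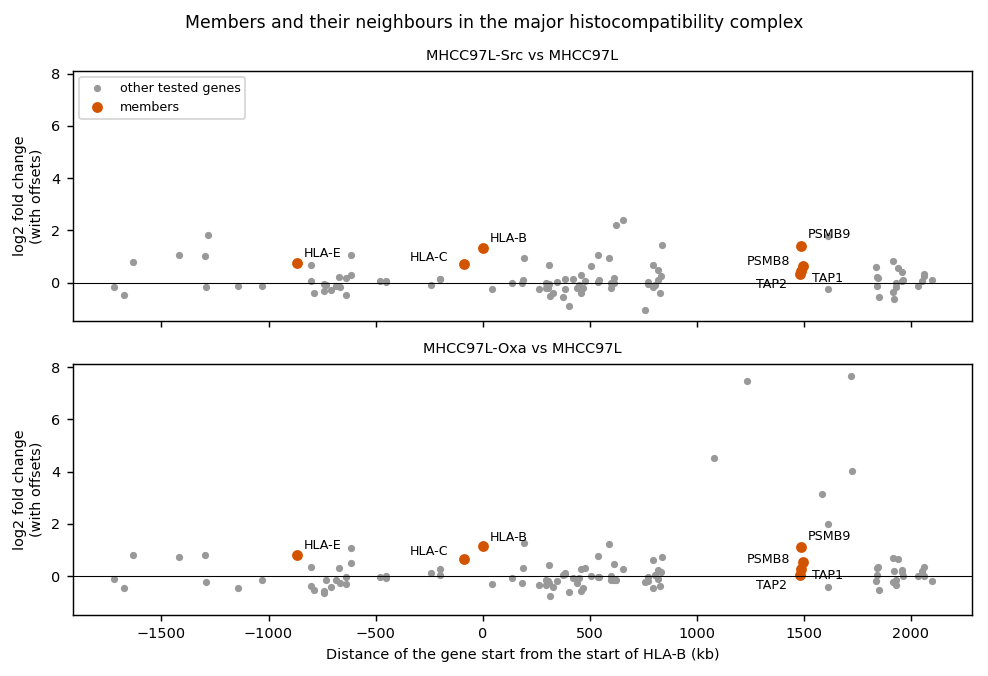
Log2 fold change with GC content and length offsets of the tested genes of the major histocompatibility complex in MHCC97L-Src (upper) and MHCC97L-Oxa (lower) against MHCC97L, by distance in kb of the gene start from that of HLA-B; members are orange. All 7 members lie above 0 in both panels, amid neighbours whose median is near 0, and the highest grey points of the lower panel are HLA class II genes.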

How the data were processed

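RNA of 9 libraries was sequenced from both ends, from stranded poly(A) libraries according to the labels. The authors deposited raw counts, not normalized, for 20030 genes, and a second table of FPKM, in which they divided fragments by library size and by the length of the transcript. The submitters' processing notes name Trimmomatic 0.36, HISAT2 2.2.1.0 and GRCh38.p12; the counting program and its strand setting are not given in the sources used here. In each library 245 to 297 genes with a count above 0 were listed at an FPKM of 0, so one table is not simply the other rescaled. Groups follow the treatment in the labels. The study calls the libraries independent experiments; where libraries of a line share a culture, p-values measure only the spread between these libraries.

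Each comparison was fitted on its own 6 libraries with edgeR 4.0.16 (filterByExpr with a minimum count of 10, TMM, quasi-likelihood test, Benjamini-Hochberg). Both comparisons with MHCC97L share its 3 libraries. SE was taken as the absolute log2 fold change over the root of F. GC content and length came from the longest GENCODE 29 transcript, for 19343 genes and all 38 members; offsets were natural splines with 5 degrees of freedom for each. Alternatives used DESeq2 1.42.0, limma 3.58.1 on log2(FPKM + 1) and log2(FPKM + 0.1), other scalings and filters, and fits without 1 library. The scripts were tested on simulated data. R 4.3.3, Python 3.11.15, pandas 2.3.3 and matplotlib 3.10.9 were used.

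The members, gene lists and alternatives were chosen with earlier results of these data known. Counts of every library are given for members called in any comparison, for the 6 largest changes of each comparison and for the member of each role with the highest FPKM, 20 in all. HLA-C, HLA-E, TAP1, NLRC5, IFIT1 and PTPN2 were added after their values had been seen, as were the 45% GC limit, the window around the major histocompatibility complex and the offsets without MHCC97L replicate 1. Further pathway genes came from lists with the rule of up to 6 per comparison. Some genes of these lists are not reported here.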

Additional observations from a re-analysis of the deposited data

Results flagged for a closer look

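Both resistant lines were derived from MHCC97L, and the difference between them was tested directly for each member. ISG20 differed by 1.38 on the log2 scale (higher in MHCC97L-Src, edgeR adjusted p = 0.0129), with every MHCC97L-Src library above every MHCC97L-Oxa library. IFI44 differed by -1.60 (lower in MHCC97L-Src, edgeR adjusted p = 0.0463), at 5 to 35 reads per library and again without overlap. Groups of 3 libraries were not examined for single libraries far from the others by the rule used for larger groups.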

How the results depend on the processing

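No value past the threshold changed sign under any alternative run; 43 of 1060 single-gene values changed sign, with none of the 43 past it. Of the single-gene values, 955 kept their direction and side of the threshold or stayed short of it, 36 lost a call and 69 gained one. The number of members called was 4 in MHCC97L-Src, 2 in MHCC97L-Oxa and 2 between the resistant lines, in fits that called 2.13%, 0.953% and 4.64% of all genes in either direction; brackets give that share for each alternative. DESeq2 called 11, 9 and 4 (17.6%, 7.42% and 7%). One fit of all 9 libraries called 12, 7 and 0 (16%, 4.05% and 0.703%; edgeR, 2 higher and 1 lower at an unadjusted p under 0.05 between the resistant lines). The GC and length offsets called 9, 11 and 6 (10.7%, 13% and 9.69%), and with MHCC97L replicate 1 also left out, an alternative chosen after seeing the data, 8 and 12 against MHCC97L (11.4% and 19.7%). Limma on log2(FPKM + 1) or log2(FPKM + 0.1) called 6 in MHCC97L-Oxa (2.58% and 2.71%), and without a filter 1 between the resistant lines (2.95%), where a minimum of 10 counts in every library also left 1 (4.52%). A rule of unadjusted p under 0.05 plus a log2 change beyond 1 in size gave 10 and 11 against MHCC97L (24.6% and 16.2%), and an adjusted p under 0.1 gave 4 in MHCC97L-Oxa (2.65%) and 4 between the resistant lines (7.91%). Leaving out 1 library gave 0 to 12 (0.18% to 27.8%), 0 to 16 (0.0163% to 22.1%) and 0 to 8 (1.38% to 13.3%); 0 came without MHCC97L replicate 3 in both comparisons with MHCC97L, in MHCC97L-Oxa also without any 1 of its own libraries, and, between the resistant lines, without MHCC97L-Src replicate 1 or MHCC97L-Oxa replicate 2 or 3. The causes of these shifts were not tested.

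With the replicate block, 5, 2 and 1 members were called (8.21%, 0.763% and 3.39% of all genes), and with block and offsets 4, 8 and 2 (1.88%, 5.09% and 3.94%). The deviations of same-numbered libraries correlated at -0.631 to 0.211, -0.208 to 0.417 and -0.271 to 0.0286 in the 3 comparisons, and 1 of 3 numbers was the best match in each. These correlations showed no pairing by number. With 3 libraries per line they cannot exclude that same-numbered libraries were handled together. Genes of low count, such as the IFIT, MX and sensor genes, are limited by depth.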
